A study of Caenorhabditis elegans with 3 samples.

Results

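The piRNA genes of Caenorhabditis elegans carry names that start with 21ur. They were followed through tables of intervals called from chromatin immunoprecipitation and sequencing (ChIP-seq) of trimethylated lysine 4 of histone H3 (H3K4me3), which marks the 5' ends of transcribed genes. Members were all table rows with a gene symbol of that form. This gave 7 genes in 7 of 95 intervals for F11, and for F14' it gave 139 genes in 51 of 639 intervals. All 7 and all 139 genes matched a RefSeq gene table (assembly WBcel235) and are typed as piRNA there, among 15363 such genes. The study had 3 groups of wild-type whole nematodes with 1 library each. F11 nematodes had been exposed to sulfomethoxazole (SMX, an antibiotic, spelled as in the labels) in K-medium on nematode growth medium plates for 11 generations, 6 days in each. F14' nematodes came from the line exposed for those 11 generations and were kept on plates with K-medium without the drug. The labels number them as generation 14 and also call them the first progeny not exposed, and the steps between 11 and 14 are not explained there. The control was kept on such plates and never exposed. The sources used here give neither its generation nor the dose, and its library was not analysed by itself. All groups were grown at 20 °C on E. coli OP50.

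Nematode piRNAs are 21U-RNAs, named for a length of 21 bases and a first base of uridine. They are made in the germline, are bound by the Piwi protein PRG-1, and guide the silencing of foreign and repeated sequences. Most of their genes are short, separate transcription units of RNA polymerase II that lie packed in clusters on chromosome IV, and they depend on factors such as PRDE-1, SNPC-4 and TOFU-5. Germline tissue was not separated here, so fewer germline cells and less mark per cell cannot be told apart.

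With 1 library a group there is no replicate check and no test between groups, and all intervals given cover counting error only. Tags are deposited counts inside intervals, library depths are not known from the sources used here, and folds are the authors' values over the background of the peak caller. Coordinates are in ce10. A gene counts as listed when a table names it beside an interval. Per the labels, both groups were set against 1 shared control library, so the intervals are not a map of the mark in each group. A gene that is not listed is not shown to lack the mark.

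In F11, 7 of the 15363 21ur genes of the reference table were listed (0.0456%), against 0.190% of all its genes and 0.260% of the genes other than 21ur. In F14', 139 were listed (0.905%), against 1.78% of all genes and 2.21% of the others. Over all chromosomes together, the 21ur genes were thus listed at a lower rate than other genes in both tables. The gap held on chromosome IV alone, where 0.0272% of 21ur genes and 0.160% of other genes were listed in F11, and 0.911% and 2.18% in F14'. F14' intervals often carry several 21ur genes, whereas each F11 interval of this kind carries a single gene, so the 7 and 139 genes are not counted by the same rule. With the nearest 21ur gene alone kept in each F14' interval, 50 genes remained there. Since 21ur genes lie packed, the number of genes named per interval also bears on their rate against other genes. Its part was not tested. Counted by interval, 4 of the 13 chromosome IV intervals were 21ur in F11 (30.8%), and 45 of 128 in F14' (35.2%).

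The 7 F11 intervals were alike in density and modest in fold. The interval of 21ur-12347 (chromosome V, 13921152 to 13922735) held 412 tags, or 260 tags per kb, at a fold of 2.79. That of 21ur-1442 (chromosome IV, 14705313 to 14706500) held 346 tags, or 291 tags per kb, at a fold of 2.47. These were the highest folds of the 7, yet they belonged to the lowest densities.

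The interval of 21ur-14457 (chromosome IV, 15129422 to 15131981) held 775 tags, or 303 tags per kb, at a fold of 2.41. That of 21ur-5573 (chromosome IV, 6000183 to 6003294) held 976 tags, or 314 tags per kb, at a fold of 2. It was the single F11 member with a score (-10 log10 p) above 100, at 117. The interval of 21ur-14095 (chromosome II, 3048474 to 3050132) held 518 tags, or 312 tags per kb, also at a fold of 2.

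The lowest folds belonged to 21ur-11334 (chromosome IV, 16158386 to 16162416), with 1280 tags, 318 tags per kb and a fold of 1.93, and to 21ur-12599 (chromosome II, 2840409 to 2842069), with 503 tags, 303 tags per kb and a fold of 1.87. The highest and lowest of the 7 densities were 318 tags per kb (exact 95% Poisson interval 300.4 to 335) and 260 tags per kb (236 to 286). All 7 densities lay below the median of the other 88 F11 intervals, with 317.5 tags per kb at 21ur-11334 against that median of 317.8. The median fold was 2 in the 7 and 2.02 in the other 88. A fold of at least 5 was reached by 0 of the 7, against 4.21% of all F11 intervals. The authors' false discovery rate was 100% at each of the 7. That of the other 88 was not summarised here, so the value is not given as particular to the 7.

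The 51 F14' intervals ran over a much wider range. Their median was 304 tags per kb (range 264 to 4450), against 301 tags per kb in the other 588 F14' intervals and 304 tags per kb in the 83 other intervals of chromosome IV. Of the 51, 27 lay above the median of the others. The median fold was 2.36 in the 21ur intervals and 2.3 in the others. A fold of at least 5 was reached by 9 of the 51 (17.6%), against 15.2% of all F14' intervals. By density and by fold the 21ur intervals therefore lay near the other intervals of their table. They held 58226 tags, 4.61% of the tags in all F14' intervals, on 7.50% of the covered length. In F11 the 7 intervals held 4810 tags, 2.84% of the total, on 6.97% of the covered length.

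**Figure D1:**
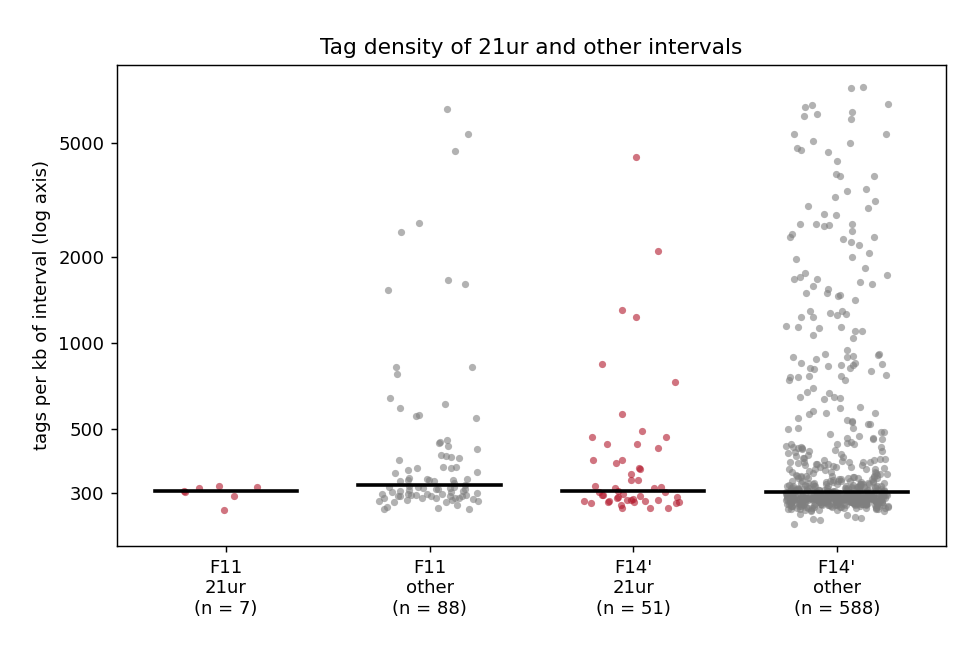
Tags per kb (log axis) of each interval listed with 21ur genes (red) and of each other interval (grey), in F11 and F14'; black lines are medians. The 7 F11 points lie between 260 and 318 tags per kb, while the 51 F14' points reach 4450 tags per kb.

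The highest fold among them, 17.49, belonged to a group of 11 21ur genes (21ur-467, 21ur-9229, 21ur-2310, 21ur-2217, 21ur-3819, 21ur-13721, 21ur-14966, 21ur-10926, 21ur-757, 21ur-12106 and 21ur-2593) on chromosome IV, 15408857 to 15410268. The interval held 2970 tags, or 2103 tags per kb (2028 to 2180). It was also the interval with the most 21ur genes, and no other kind of gene was listed with it. In the gene order of the reference table, 21ur-467 has 32 genes between it and the coding gene nhr-5 on one side, and 89 between it and Y73F8A.22 on the other. Of the 11 starts, 4 lay inside the interval, the nearest to its centre being that of 21ur-9229 at -231 bp, where a negative distance means that the centre lies upstream of the start.

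The next highest folds belonged to intervals with a single 21ur gene each. That of 21ur-13604 (chromosome IV, 6468460 to 6470227) held 2305 tags, or 1304 tags per kb, at a fold of 12.73, with its centre 765 bp downstream of the start. That of 21ur-8623 (chromosome IV, 13360010 to 13362511) held 11133 tags, or 4450 tags per kb (4367 to 4533), at a fold of 11.03. It had the highest density of all 51, and its centre lay at -883 bp. In gene order 21ur-8623 directly follows the coding gene Y62E10A.3 and is separated by 1 gene from the chemoreceptor gene srsx-25.

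The interval of 21ur-13955 (chromosome II, 9404279 to 9405836) held 1915 tags, or 1229 tags per kb, at a fold of 10.56. It was also listed with the noncoding RNA gene Y51B9A.13 and the coding gene Y51B9A.5, and the noncoding gene had the nearest start. These 4 intervals were the only members at or above a score of 3100, the usual ceiling of the F14' table. The fifth density belonged not to a high fold but to a 9423 bp stretch on chromosome V (7916625 to 7926047), listed with 21ur-13344 and the chemoreceptor gene srsx-7. It held 7971 tags, or 846 tags per kb, at a fold of 1.68, the lowest of the 51.

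The background against which each interval was scored can be computed from its tags and its p as the Poisson mean at which those tags have that p. At the chromosome V stretch it was 812 tags per kb, so the tags were 1.04 times the background. Over the 47 F14' members below the ceiling, the median background was 235 tags per kb and tags were a median of 1.26 times it. The median ratio was 1.23 in the 524 other F14' intervals below the ceiling. At or above it, where no background was computed, lay 7.84% of the members and 10.9% of the others. The highest ratio among the members, 2.09, belonged to 21ur-8849 (chromosome IV, 14056644 to 14059645), with 2196 tags and a fold of 3.77. In F11 the ratio was 1.11 to 1.28 over the 7 intervals. High raw density and high density over background thus did not coincide at every member.

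Clusters of 21ur genes with a moderate fold followed. An interval with 7 genes headed by 21ur-8150 (chromosome IV, 16457935 to 16459097) held 573 tags, or 493 tags per kb, at a fold of 8.47. All 7 of its genes lay on the minus strand, and none of their starts was inside the interval. An interval with 8 21ur genes (21ur-13102, 21ur-4720, 21ur-3077, 21ur-16, 21ur-10800, 21ur-963, 21ur-9449 and 21ur-10334) and the noncoding RNA gene C23H5.10 lay at 15895222 to 15896643 on chromosome IV, with 670 tags and a fold of 5.1. An interval with 4 genes (21ur-7724, 21ur-14982, 21ur-12415 and 21ur-14313) at 6089969 to 6091120 held 400 tags, also at a fold of 5.1.

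As a group, intervals with more 21ur genes did not have higher folds, although the highest fold had the most genes. The 26 intervals with 1 gene had a median fold of 2.4, and the 25 with 2 or more a median of 2.17. Densities were a median of 323 tags per kb with 1 gene and 297 tags per kb with 2 or more. The other intervals with 7 genes had folds of 2.21 (with 21ur-6360 and 21ur-15346 among its genes, chromosome IV, 16271916 to 16273554) and 2.02 (with 21ur-5143 and 21ur-7112, chromosome IV, 16209804 to 16211583). In all, 26 intervals had 1 21ur gene, 1 had 2, 7 had 3, 5 had 4, and 12 had 5 or more. Of the 25 with 2 or more genes, 18 held genes of both strands. Over all 139 genes, 59 lay on the plus strand (42.4%, exact 95% binomial interval 34.1 to 51.1%). These limits count genes named with the same interval as independent, and the share over all 21ur genes was not computed.

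**Figure D2:**
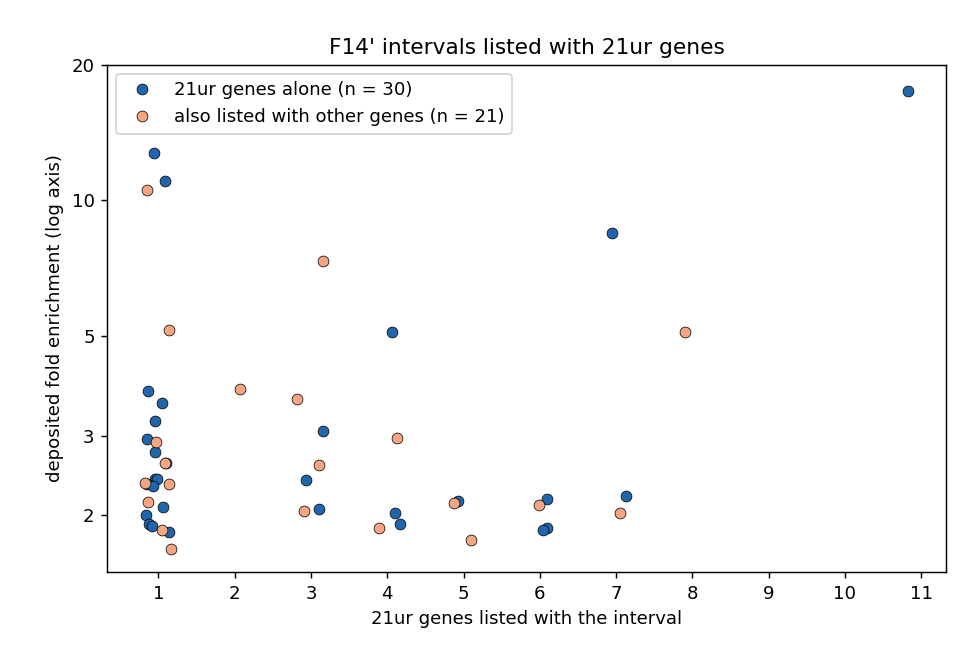
Deposited fold enrichment (log axis) of the 51 F14' intervals against the number of 21ur genes listed with each; blue points carry 21ur genes alone and orange points also carry other genes, with a small sideways shift so that points can be told apart. Intervals with 1 gene span folds of 1.68 to 12.73, and the interval with 11 genes has the highest fold, 17.49.

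Chromosome IV held 4 of the 7 F11 intervals (57.1%, 18.4 to 90.1%) and 45 of the 51 F14' intervals (88.2%, 76.1 to 95.6%). The other intervals of the tables lay there in 10.2% of cases in F11 (4.78 to 18.5%) and 14.1% in F14' (11.4 to 17.2%). Of all 21ur genes in the reference table, 95.8% lie on that chromosome. The F11 members off chromosome IV were those of 21ur-14095, 21ur-12599 and 21ur-12347. These 3 are 0.462% of the 21ur genes on other chromosomes, a higher rate than on chromosome IV in that table but one that rests on 3 genes. That rate also exceeded the 0.260% of all genes other than 21ur in F11. The rate of those genes off chromosome IV was not computed. In F14' the rates were 0.770% off and 0.911% on chromosome IV.

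Within chromosome IV the F14' members fell into 2 stretches. From 5191337 to 7125523 there were 8, and from 13360010 to 17241888 there were 37. The 6234487 bp between held none, although 25 other F14' intervals lay there. A further 34 other intervals lay before the first member and 2 after the last. The fullest 500 kb bins were 17 to 17.5 Mb, with 8 members, and 16 to 16.5 Mb, with 7, and members occupied 13 of the 34 bins that held any F14' interval. In F11 the 4 members lay at 6 Mb (21ur-5573) and between 14705313 and 16162416 (21ur-1442, 21ur-14457 and 21ur-11334), inside the same stretches.

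Gene order gives the same view from the genes' side. In consecutive windows of 500 genes, chromosome IV has 2 runs in which at least 50% of genes are 21ur, with 2478 21ur genes in the first run (82.6% of its genes) and 11421 in the second (93.6%). In F14' 14 21ur genes of the first run were listed (0.565%), and 107 of the second (0.937%). Genes other than 21ur were listed at 2.49% in the first run and 3.19% in the second, so 21ur genes were listed at a lower rate within both. On the rest of chromosome IV the F14' rates were closer, at 1.60% of 21ur genes (13 genes) and 1.93% of other genes. Of the 44 F14' intervals in the second run, 34 carried a 21ur gene (77.3%), and of the 15 in the first run, 7 did (46.7%). These are shares of intervals, which can list several genes, and they are not compared with the shares of 21ur genes in each run. Both neighbours in gene order were 21ur genes for 2 of the 7 listed genes in F11 and 91 of 139 in F14'. The share over all 21ur genes was not computed, and F14' often names several genes per interval. These counts are therefore not read as a result about the listed genes, nor compared between the tables.

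**Figure D3:**
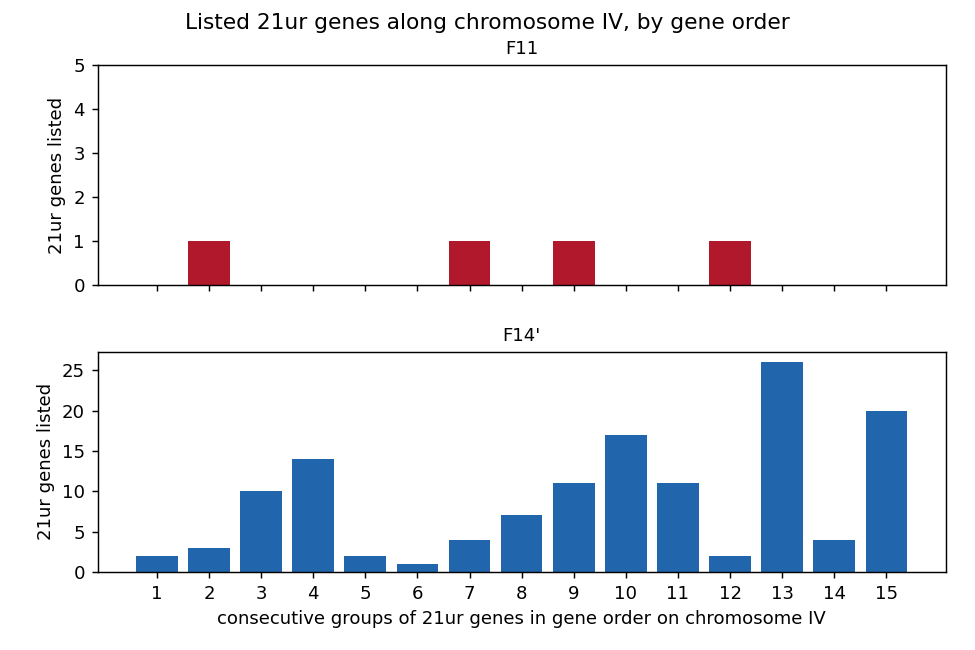
Number of listed 21ur genes in 15 consecutive groups of chromosome IV 21ur genes in gene order (1000 genes each, 714 in the last), for F11 (top) and F14' (bottom). F11 has 1 gene in each of 4 groups, and F14' has between 1 and 26, with 26 in group 13 and 20 in group 15.

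The authors' class, which follows from distance to the listed start, differed between the tables. In F11 3 of 7 members were promoter intervals (42.9%, 9.90 to 81.6%), namely those of 21ur-1442, 21ur-14095 and 21ur-5573, beside 42.0% of the other F11 intervals. The remaining F11 members were 2 upstream intervals (21ur-12347 and 21ur-12599) and 2 intergenic ones (21ur-14457 and 21ur-11334). In F14' 43 of 51 were promoter intervals (84.3%, 71.4 to 93.0%) and 8 were upstream intervals. Among the other F14' intervals 58.0% were promoters (53.9 to 62.0%), and 59.0% among those of chromosome IV (47.7 to 69.7%). No F14' member was intergenic, intronic or exonic, whereas 14.3% of the others were intergenic. Starts are packed closely in the 21ur runs described above, and the tables differ in how many genes they list per interval. The part of this spacing and of this listing in these shares was not tested.

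Listed distances to the start were longer in F11. The centre of the interval lay a median of 2423 bp from the 21ur start in F11 (888 to 3322 bp), and a median of 752 bp from the nearest 21ur start in F14' (47 to 17306 bp). Over all 148 F14' rows, without taking the nearest start, the median was 879.5 bp. In F11, 1 of 7 members had its start within 1 kb (21ur-1442, -888 bp), and none had its start inside the interval. In F14' 37 of 51 had a 21ur start within 1 kb, and 29 had at least 1 start inside. From the summit instead of the centre, the medians were 2233 bp in F11 and 695 bp in F14'. Upstream and downstream positions were near balance, with the centre upstream of the start in 4 of 7 F11 rows and in 79 of 148 F14' rows (53.4%, 45.0 to 61.6%). Rows of the same interval share a centre, and the limits count them as independent. A single F11 interval, that of 21ur-14457, contains a 21ur start listed in the other table, so the F11 gene names depend on which gene was chosen. That start, of 21ur-15141, lay 1082 bp from the centre, against 2630 bp for the gene named in F11. At the interval of 21ur-11334, named at 3322 bp, the start of 21ur-4336 lay at 2266 bp. The F11 distances are thus not always to the nearest 21ur start, while the F14' median of 752 bp takes the shortest among up to 11 listed genes. The part of this in the difference was not tested.

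**Figure D4:**
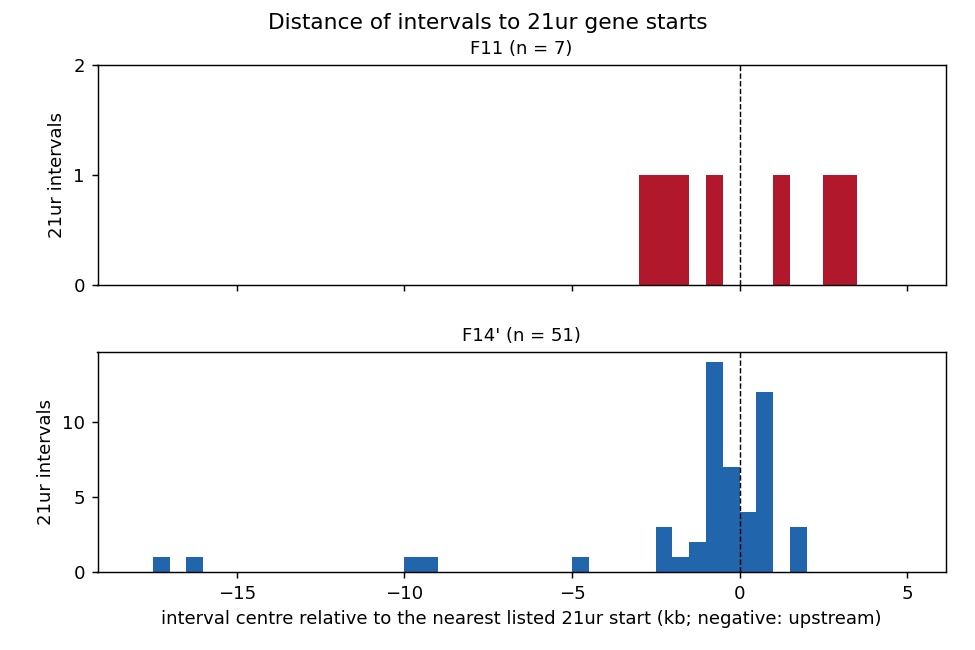
Signed distance in kb from the nearest listed 21ur start to the interval centre, as the number of intervals per 0.5 kb, for F11 (top) and F14' (bottom); negative values are upstream of the start. The F11 centres lie 888 to 3322 bp away, while most F14' centres lie within 1 kb and a few lie far upstream, the farthest at -17306 bp.

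Several F14' assignments were distant. The interval at 17138742 to 17140302 on chromosome IV (432 tags, fold 1.85) was classed as upstream of 6 genes, 21ur-3583, 21ur-4976, 21ur-7224, 21ur-514, 21ur-12416 and 21ur-7348, at -9558 to -9948 bp. All 6 were also listed with neighbouring intervals at 869 to 1235 bp. The interval of 21ur-7764 (chromosome IV, 14205360 to 14207046, fold 1.83) lay at -16119 bp, and both intervals of 21ur-13344 on chromosome V lay at -9314 and -17306 bp. The gene 21ur-4678 was listed at 826 bp and at -19043 bp, and 21ur-6360 at 831 bp and -7376 bp. In all, 9 of the 139 genes were listed with 2 intervals.

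Intervals listed with 21ur genes alone numbered 7 of 7 in F11 and 30 of 51 in F14'. In F14' these 30 had a median of 307 tags per kb and a median fold of 2.37, and the 21 that also carried other genes had 304 tags per kb and 2.36. The mixed intervals named 26 other genes, of which 22 were protein-coding, 3 noncoding RNA genes and 1 a pseudogene (mboa-5, at a fold of 1.85). A 21ur gene had the nearest listed start in 8 of the 21. Where both kinds of start lie within about 1 kb of a centre, the interval cannot be given to either.

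Mixed intervals with a nearer 21ur start included that of 21ur-14135 (chromosome IV, 6209596 to 6210733, fold 7.35). It lay at -179 bp from this gene, against -722 bp from ugt-24, which encodes a UDP-glucuronosyltransferase of drug and toxin conjugation, and -824 bp from C49A9.6. The interval held 504 tags, or 443 tags per kb. Others of this kind were listed with Y105C5A.10 (21ur-7366 at -115 bp, fold 3.82), srv-21, a chemoreceptor gene (21ur-12712 at -622 bp, fold 3.63), and Y43D4A.6 (21ur-667 at -50 bp, fold 2.96). The same held for the chemoreceptor gene str-18 on chromosome V (21ur-15073 at 118 bp, fold 2.14), Y57G11C.52 (21ur-1734 at 53 bp, fold 2.1) and mboa-5 (21ur-12562 at -813 bp).

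In the other 13 mixed intervals the other gene had the nearest start. The interval centre lay at -170 bp from 21ur-11261, against -27 bp from the histone deacetylase gene hda-6 (fold 2.34), and F41H10.4 was listed there too. Another centre lay at -556 bp from 21ur-14472, against -541 bp from the caspase-related gene csp-2 (fold 2.91). Another centre lay at -1052 bp from 21ur-12313, against 1047 bp from Y41E3.13 (fold 5.16), so the choice there turns on 5 bp.

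Further intervals of that kind were listed with F55B11.5 (fold 2.36), the glutamine- and asparagine-rich protein genes pqn-79 and pqn-76 with a noncoding RNA gene (2.04), H25K10.2 (2.02), and Y116A8C.20 (2.58). The Skp1-related gene skr-9 (2.13), whose product belongs to ubiquitin ligase complexes, Y116A8C.40 (1.87) and C08F11.10 (1.76, the second lowest fold of the 51) were also nearer than the 21ur genes. The related gene skr-13, listed with the same interval as skr-9, was farther, with the centre at 625 bp from 21ur-14058 and -1153 bp from skr-13. For the pair at srsx-7 on chromosome V the order depends on the interval, with 21ur-13344 nearer in 1 and srsx-7 nearer in the other.

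Beyond chromosome IV, F14' had 6 members. Those of chromosomes II and V are given above. The interval of 21ur-14912 (chromosome III, 5506663 to 5509417) held 1009 tags at a fold of 2.76 with its centre at -61 bp, and carried no other gene. The interval of 21ur-15342 (chromosome X, 5913072 to 5916133) held 1359 tags, or 444 tags per kb, at a fold of 2.95, with its centre at -2413 bp. In gene order 21ur-14912 lies between D1044.7 and pqn-25, and 21ur-15342 between Y23B4A.1 and the neuropeptide gene capa-1. The 6 members off chromosome IV, which include both intervals of 21ur-13344, had a median of 413 tags per kb, and the 45 on it 301 tags per kb. Over the computed background the order was reversed. Tags were a median of 1.23 times it in the 5 members off chromosome IV below the score ceiling, and 1.27 times in the 42 on it.

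The comparison of F11 with F14' asks whether 21ur regions listed after exposure were listed again in descendants raised without it. Of the 7 F11 members, 3 overlapped an F14' interval by at least 1 bp (42.9%, 9.90 to 81.6%), against 55.8% of all F11 intervals and 56.8% of the others. From the other side, 2 of the 51 F14' members overlapped an F11 interval (3.92%), against 8.45% of all F14' intervals and 8.84% of the others. Of the listed 21ur genes, 0 were named in both tables. That count depends on which gene was named, since 2 overlapping regions carry different 21ur names in F11 and F14'. The share of all listed genes named in both was not computed, so the 0 is not read as a result about 21ur genes. Per the labels, F11 and F14' share 1 control library, so the tables are not independent.

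In the first of the overlaps, on chromosome IV, F11 listed 21ur-14457 with 775 tags (303 tags per kb, 282 to 325) and F14' listed 21ur-15141 with 648 tags (334 tags per kb, 308 to 360.2; 15129648 to 15131590). The F14' interval lies wholly inside the F11 one. The class was intergenic in F11 and promoter in F14', and different genes were named. In gene order both lie between M199.9 and the collagen gene col-135.

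In the next, also on chromosome IV, F11 listed 21ur-11334 with 1280 tags (318 tags per kb, 300.4 to 335) and F14' listed 21ur-4336 with 1974 tags (332 tags per kb, 318 to 347; 16157117 to 16163053), and here the F11 interval lies inside the F14' one. Its class was again intergenic in F11 and promoter in F14'. The third overlap, on chromosome II, paired 21ur-12599 (303 tags per kb, 277 to 330.5) with an F14' interval listed with the coding gene Y110A2AL.4 alone (272 tags per kb, 248 to 299), over 727 bp. Y110A2AL.4 is the next gene after 21ur-12599 in gene order. The counts are not scaled to depth, so these densities are given side by side and not compared between the libraries.

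The other 4 F11 members had no F14' interval over them. The nearest one lay 2080 bp from the interval of 21ur-5573, 51406 bp from that of 21ur-1442, 55764 bp from that of 21ur-14095 and 184927 bp from that of 21ur-12347. Conversely the F14' members with the highest folds, those of 21ur-467, 21ur-13604 and 21ur-8623, had no F11 interval over them. An interval missing from a table does not show that its region lacked tags there, since tags outside intervals are not listed.

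Genes of the piRNA pathway itself were not listed. Of a list of 50 genes for transcription, processing, binding and downstream silencing, 48 matched the reference table, and 0 of 48 had an interval in F11 or in F14', which allows a share of up to 6.25%. The list includes prg-1, the nuclear Argonaute gene hrde-1, prde-1, snpc-4 and tofu-5 for piRNA transcription, the trimming exonuclease gene parn-1 and the RNA methyltransferase gene henn-1. The rate was 0.190% in F11 and 1.78% in F14' over all genes, and 0.260% and 2.21% over genes other than 21ur. At these rates a list of this size would hold about 1 listed gene or fewer, so the count of 0 is near the background.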

How the data were processed

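The authors deposited 1 annotated interval table for F11 and 1 for F14'. The tools in the submitters' processing notes are MACS 1.4.0rc2 and Bowtie2 2.1.0, with ce10 as the build. Per the labels' protocols, nematodes were fixed in 2% formaldehyde for 30 min and sheared to 200 to 800 bp. Per the file headers, each interval has a count of tags (deposited whole numbers, not scaled to depth), a fold enrichment (a ratio by the authors), a deposited score of -10 log10 p, and in F11 the authors' FDR in percent.

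Rows were collapsed to unique intervals (103 rows to 95 in F11, 1025 to 639 in F14'). All deposited distances equal the signed distance from interval centre to start within a rounding step. Tags per kb are tags over interval length with exact Poisson 95% limits, and shares have exact Clopper-Pearson 95% limits. No p was computed. Identifiers were matched to the RefSeq table by accession, symbol or locus tag (95 of 100 in F11, 913 of 923 in F14'). This table served for names, gene order, gene types, chromosomes and the gene totals behind the listing rates, and not for interval positions. Code was tested on simulated data. Members and lists were chosen with earlier results of these data known. Named intervals were all in F11 and, in F14', those with the highest or lowest fold, most genes, highest density, overlap with F11, other genes, or off chromosome IV. Other genes were added after their values were seen. Computation used scipy 1.17.1, pandas 2.3.3 and numpy 2.4.6 under Python 3.11.15, and plots matplotlib 3.10.9.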

Additional observations from a re-analysis of the deposited data

How the results depend on the processing

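Of 107 values under other settings, 72 stayed within 1.5 times the count or within the counting limits and 35 moved. Stricter limits leave fewer intervals by construction. At a score of at least 100, F11 kept 1 interval, 1 gene and 1 interval with 21ur genes alone, with 100% on chromosome IV, 100% promoter and 0% overlapping F14'. F14' then kept 21 intervals, 58 genes and 14 with 21ur genes alone, at medians of 443 tags per kb and a fold of 3.77. The share of 21ur intervals kept was 14.3% in F11, against 29.5% of the others, and 41.2% in F14', against 37.1%. At or above the median fold of both tables (2.27), F11 kept 3, 3 and 3, and F14' kept 29, 68 and 17, at 382 tags per kb and 3.07. An FDR of at most 5% left 0, 0 and 0 in F11 and could not be set in F14'. The share of the other F11 intervals at that FDR was not summarised. Within 1 kb of the start, F11 had 1, 1 and 1 (100% on chromosome IV, 100% promoter, 0% overlapping), and F14' had 19 with 21ur genes alone and 100% promoter. With 21ur genes alone, F14' had 30 intervals and 80 genes. Counted per gene, 95.9% of F14' was on chromosome IV. With 1 21ur gene per interval, a setting chosen after seeing the data, F14' had 50 genes. In 1 Mb bins F14' members occupied 8. Sequence motifs in promoters were not run. No paired analysis was possible because each group has 1 library. Library depths are unknown, so what depth limits could not be measured.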

Other observations

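Intervals without a 21ur gene inside the 21ur-rich runs of chromosome IV gave a local comparison in F14'. In the first run the 7 intervals with 21ur genes had a median of 317 tags per kb and a median fold of 3.63, and those with other genes alone had 351 tags per kb and a fold of 2.25. In the second run the 34 with 21ur genes had 299 tags per kb and a fold of 2.27, and those with other genes alone had 307 tags per kb and a fold of 2.28. A fold of at least 5 was reached by 3 of the 7 intervals with 21ur genes in the first run. The counts were 4 of 34 in the second run and 1 of 4 elsewhere on chromosome IV. Over all F14' intervals the share was 15.2%. It was not computed for the other intervals of each run, so these counts are not read as a result about 21ur intervals.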
